A study of Mus musculus with 4 samples.

Results

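The 8 genes described here belong to the metabolism of glutamine and glutamate that leads to succinate, though Glul makes glutamine from glutamate, away from succinate. They are Slc1a5, Glul, Glud1, Got1, Got2, Gpt2, Sucla2 and Suclg2, taken by symbol from the 16442 genes of the deposited table, and each was present as 1 row. Enough footprint reads for the test across genes (at least 20 CPM, a read count scaled to the assigned reads, in at least 2 libraries) were present for 7 of the 8, among 6387 genes in all. Gpt2 was the exception.

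Glutamine is imported by amino acid transporters, deamidated to glutamate, and converted to alpha-ketoglutarate by glutamate dehydrogenase or by transaminases. Alpha-ketoglutarate is oxidised to succinyl-CoA in the tricarboxylic acid cycle, and succinyl-CoA ligase releases succinate while it makes ATP or GTP. Proliferating blood and leukaemia cells are known to use glutamine as a source of carbon and of nitrogen.

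The libraries came from leukaemia stem cells of the bone marrow of leukaemic C57BL/6 mice, with 2 libraries labelled KO for Rreb1, a zinc finger transcription factor, and 2 labelled WT. Ribosome footprints, the stretches of mRNA that a translating ribosome shields from nuclease, were sequenced, and part of each lysate served as input RNA. For KO replicate 2 the labels give the genotype as Rreb2-KO, and its title placed it in the KO group. No label used here gives the knockout allele, any Cre driver, the oncogene behind the leukaemia, the sort or the animal behind each replicate. A p-value below therefore stands for the spread between libraries, which may be technical.

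Footprints were shallow, with 364087 and 274183 assigned reads in KO-labelled libraries and 878068 and 656249 in WT libraries, while input RNA had between 17037493 and 19121998 reads a library. Rreb1 itself had footprint levels of 12.9 and 8.19 RPKM (reads per kilobase, scaled to the assigned reads of the library) in KO-labelled libraries and 14.1 and 12.8 RPKM in WT libraries, and the groups overlapped. Rreb1 RNA stood higher in KO-labelled libraries, at 6.10 and 6.93 RPKM, against 3.33 and 3.25 RPKM in WT libraries, so neither readout of the whole gene checks the genotype labels. The leukocyte marker Ptprc was present in every library, at 28.5 and 30.8 RPKM of RNA in KO-labelled libraries and 31.0 and 31.2 RPKM in WT libraries. The 8 blood and progenitor markers summed to 379 and 351 RPKM of RNA in KO-labelled libraries and 486 and 502 RPKM in WT libraries. Of these, 4 were above WT (Kit, Cd34, Flt3 and Myb) and 3 below (Ptprc, Mpo and Meis1). Mpo was the largest part of each sum, at 192 and 166 RPKM in KO-labelled libraries and 371 and 387 RPKM in WT libraries. Marker lists of mature cells also differed: the 7 monocyte and macrophage markers summed to 1209 and 1091 RPKM of RNA in KO-labelled libraries and 5922 and 5936 RPKM in WT libraries, with 5 below and 2 above WT. Summed RNA of 7 mast cell, basophil and eosinophil markers was 511 and 494 RPKM in KO-labelled libraries and 35.9 and 34.1 RPKM in WT libraries, with 6 above WT. Neutrophil markers were lower, with sums of 9883 and 9537 RPKM in KO-labelled libraries and 16835 and 16018 RPKM in WT libraries, and 5 of 6 below WT. Erythroid sums were 331 and 408 RPKM in KO-labelled libraries and 70.0 and 61.5 RPKM in WT libraries, with 3 of 6 markers above WT (the globins) and 1 below (Klf1). Stromal and endothelial sums were 73.3 and 80.3 RPKM in KO-labelled libraries and 12.1 and 12.4 RPKM in WT libraries, with 4 of 5 markers above WT. Pecam1 was the largest part of each sum, at 48.7 and 53.0 RPKM in KO-labelled libraries and 10.5 and 10.6 RPKM in WT libraries. Megakaryocyte and platelet sums were 20.8 and 22.2 RPKM in KO-labelled libraries and 1.15 and 1.64 RPKM in WT libraries. Itga2b made most of the KO-labelled sums, at 19.7 and 19.6 RPKM against 0.153 and 0.162 RPKM in WT libraries, and Pf4 and Gp9 overlapped between groups. T and NK cell sums were 5.94 and 6.10 RPKM in KO-labelled libraries, mostly from Lck, and 1.72 and 2.17 RPKM in WT libraries. B cell sums were 28.3 and 26.4 RPKM in KO-labelled libraries and 43.0 and 40.5 RPKM in WT libraries, with Cd79b below WT and Cd79a above. No listed marker in the table was at 0 in all 4 libraries. The part of these cells in the results on the 8 genes was not tested. In such bulk samples, fewer cells of a type and less RNA per cell cannot be told apart.

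Input RNA separated the groups for 4 of the 7 tested genes, and footprints for none at the adjusted threshold. RNA of Glul and Glud1 fell in the KO-labelled libraries, and RNA of Slc1a5 and Got1 rose. RNA of Got2, Sucla2 and Suclg2 did not pass. This was against 60.7% of all tested genes past the threshold in RNA, 33.1% higher and 27.7% lower, so that a count of 4 in 7 is near that of any gene here. In footprints 0 of 7 passed in limma, with 2 at an unadjusted p under 0.05 (Glul and Glud1), against 1.03% and 18.2% of all tested genes. A count model, limma-voom on the recovered reads, also called 0 of the 7. The groups did not overlap for 4 of 7 genes in RNA and for 2 of 7 in footprints, against 82% and 52.5% of all tested genes. Median log2 differences of the 7 were 0.10 in footprints, -0.09 in RNA and -0.15 in translational efficiency (TE, footprints over RNA), against -0.13, 0.04 and -0.15 over all tested genes.

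**Figure D1:**
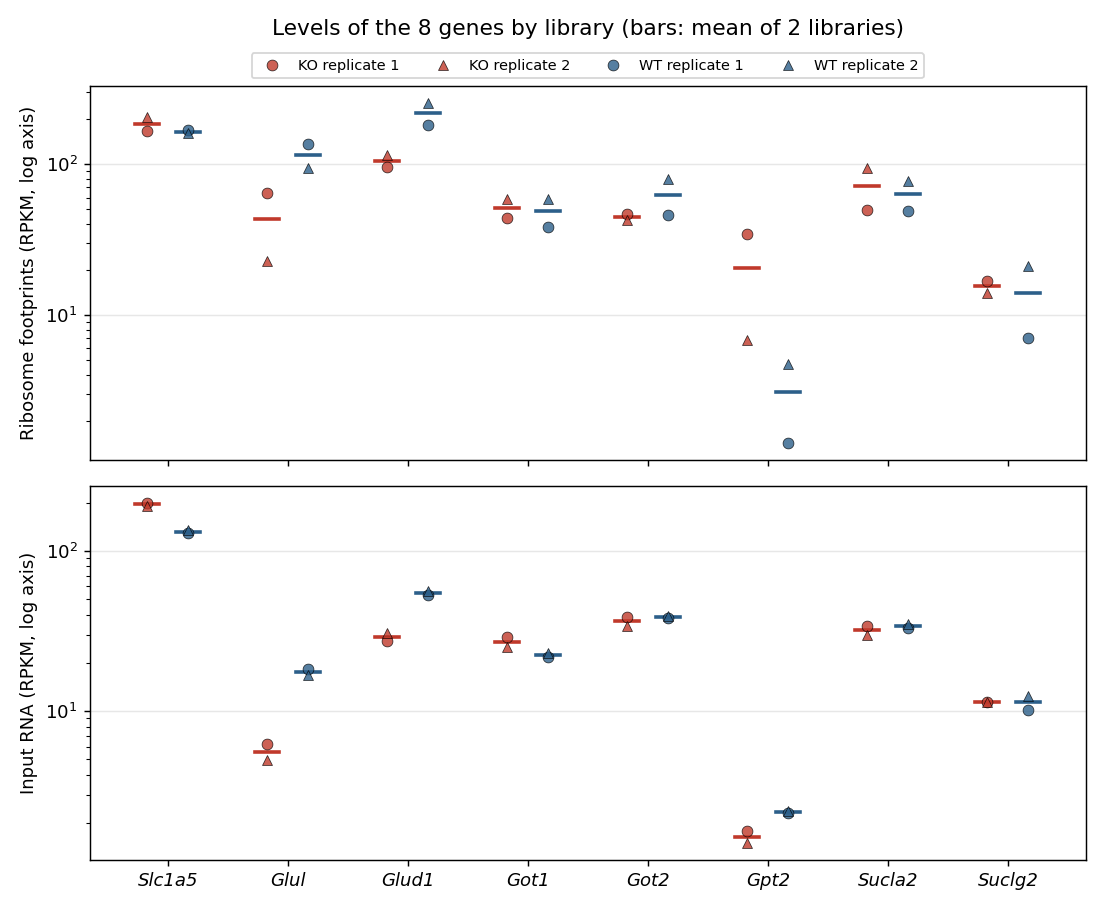
Footprint and RNA levels of the 8 genes in each library, in RPKM on a log axis, with KO-labelled libraries left of WT libraries; points are single libraries and short bars are means of 2 libraries. The KO-labelled points of Glul and Glud1 lie below the WT points in both readouts, and both KO-labelled points of Slc1a5 lie above WT in RNA but not in footprints.

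Slc1a5 encodes the sodium-dependent neutral amino acid exchanger that imports glutamine across the plasma membrane. Its RNA was at 200.2 and 191.1 RPKM in KO-labelled libraries and 129.0 and 134.1 RPKM in WT libraries, with every KO-labelled library above every WT library. RNA rose 1.49-fold, a log2 difference of 0.57 ± 0.07 (SE, n = 2 per group, limma adjusted p = 0.000305). Footprints did not separate the groups: they were at 165.0 and 203.7 RPKM in KO-labelled libraries, from 100 and 93 reads, and at 166.9 and 160.2 RPKM in WT libraries, from 244 and 175 reads. Footprints had a log2 difference of 0.16 ± 0.27 (SE, n = 2 per group, limma adjusted p = 0.781), with a 95% interval of -0.54 to 0.87 that holds the RNA difference. TE was 0.825 and 1.07 in KO-labelled libraries and 1.29 and 1.19 in WT libraries. Slc1a5 was the one gene of the 7 whose TE did not overlap between groups, which held for 48% of all tested genes, and its log2 TE difference of -0.40 ± 0.35 (SE, n = 2 per group) had a limma adjusted p of 0.65.

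Glul, the glutamine synthetase that makes glutamine from glutamate and ammonia, had the lowest RNA ratio of the 7 tested genes. Its RNA was at 6.22 and 4.94 RPKM in KO-labelled libraries and 18.3 and 16.7 RPKM in WT libraries, a ratio of 0.319. On the log2 scale RNA fell by 1.49 ± 0.11 (SE, n = 2 per group, limma adjusted p = 3.47e-05). An RNA difference as low was found in 2.004% of all tested genes. Footprints of Glul were at 63.8 and 22.8 RPKM in KO-labelled libraries, from 26 and 7 reads, and at 136.4 and 94.0 RPKM in WT libraries, from 134 and 69 reads. Both KO-labelled libraries lay below both WT libraries, although the 7 reads of KO replicate 2 leave a 95% Poisson interval of 9.17 to 47.0 RPKM. The footprint difference of -1.54 ± 0.57 (log2, SE, n = 2 per group) had a 95% interval of -3.03 to -0.05 and a limma adjusted p of 0.261. Without KO replicate 1 the footprint difference was -2.26, with only the 7 reads of KO replicate 2 on the KO side, and without KO replicate 2 it was -0.82. TE was 8.98 and 4.01 in KO-labelled libraries and 7.14 and 5.37 in WT libraries, and the groups overlapped (log2 difference -0.04 ± 0.50, SE, n = 2 per group, limma adjusted p = 0.98). The sign of that TE difference turned with median scaling, to 0.0925.

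Glud1, the mitochondrial glutamate dehydrogenase that turns glutamate into alpha-ketoglutarate, fell in RNA beside Glul. Its RNA was at 27.5 and 30.6 RPKM in KO-labelled libraries and 52.9 and 56.0 RPKM in WT libraries, a log2 difference of -0.89 ± 0.08 (SE, n = 2 per group, limma adjusted p = 7.39e-05). For Glud1 the share of tested genes as low was 5.37%. Footprints were at 95.2 and 115.5 RPKM in KO-labelled libraries, from 58 and 53 reads, and at 182.3 and 254.9 RPKM in WT libraries, from 268 and 280 reads. Every KO-labelled library lay below every WT library, yet the log2 difference of -1.03 ± 0.31 (SE, n = 2 per group) did not pass (limma adjusted p = 0.199). TE overlapped between groups, at 3.37 and 3.69 in KO-labelled libraries and 3.40 and 4.49 in WT libraries. Processed pseudogenes of Glud1 and Got2 are annotated in the mouse, and how reads shared with them were counted no label used here says, so the levels of both genes carry that uncertainty.

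**Figure D2:**
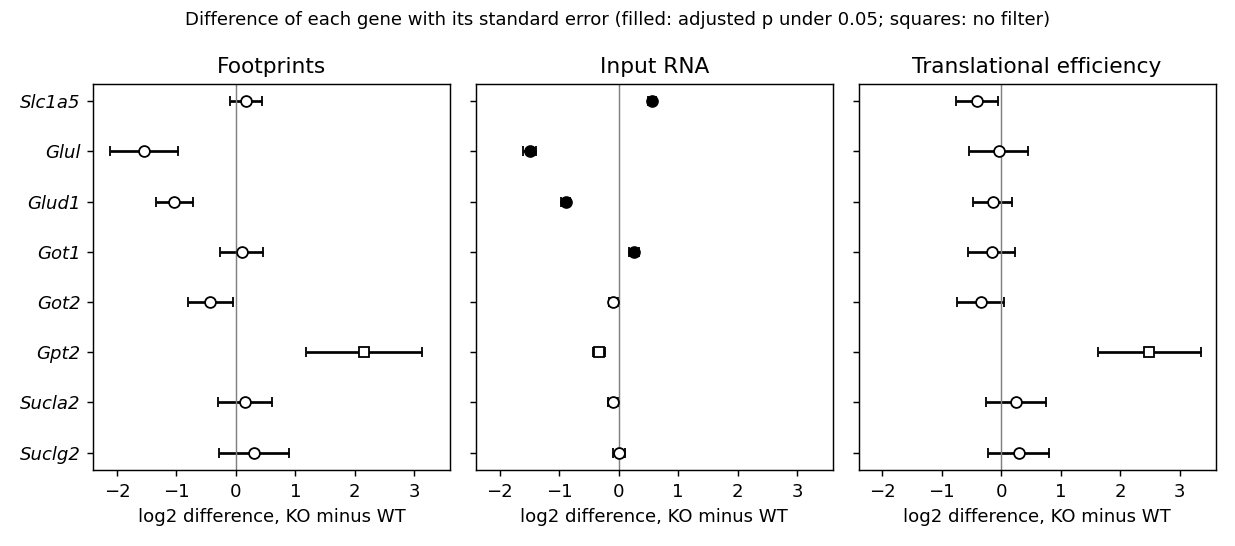
Log2 differences, KO minus WT, of the 8 genes in RNA, footprints and TE, with standard errors from limma; filled points have an adjusted p under 0.05, and the open squares of Gpt2 come from the fit with no filter on low genes. The 4 filled points, Slc1a5, Glul, Glud1 and Got1, are all in RNA, where the standard errors are shortest.

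The 250 bases upstream of the start of Glul and Glud1, whose RNA fell together, and of Got1, whose RNA rose, are shown to set their promoters side by side. RefSeq promoter windows on GRCm38.p6 matched 7 of the 8 genes, and Slc1a5 has none here. Each sequence runs 5′ to 3′ along the gene, with matches to the searched motifs in capitals: Glul at chr1:153899679-153899928 (plus strand), Glud1 at chr14:34310477-34310726 (plus strand) and Got1 at chr19:43524606-43524855 (minus strand).
Glul: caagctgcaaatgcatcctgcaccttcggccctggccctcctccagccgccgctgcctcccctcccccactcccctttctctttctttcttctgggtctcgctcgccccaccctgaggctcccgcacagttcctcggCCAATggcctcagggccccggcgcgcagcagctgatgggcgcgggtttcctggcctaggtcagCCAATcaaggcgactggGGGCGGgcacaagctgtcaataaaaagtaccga
Glud1: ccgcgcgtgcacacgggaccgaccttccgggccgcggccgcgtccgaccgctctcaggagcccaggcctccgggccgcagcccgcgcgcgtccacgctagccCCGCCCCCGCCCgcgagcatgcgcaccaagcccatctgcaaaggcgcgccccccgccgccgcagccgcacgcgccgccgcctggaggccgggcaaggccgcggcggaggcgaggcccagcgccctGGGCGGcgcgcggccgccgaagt
Got1: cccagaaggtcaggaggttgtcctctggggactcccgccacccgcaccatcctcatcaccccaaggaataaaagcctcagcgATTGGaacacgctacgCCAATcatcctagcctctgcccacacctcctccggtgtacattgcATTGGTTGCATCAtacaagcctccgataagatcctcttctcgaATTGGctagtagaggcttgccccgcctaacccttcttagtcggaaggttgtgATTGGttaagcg
Motifs were searched on both strands in these windows and in all 32851 RefSeq promoter windows of the same length. CCAAT, the CCAAT box, occurred 2 times in Glul, 0 times in Glud1 and 5 times in Got1, and 33.8% of all windows held it. Of the other matched genes, Suclg2 held it 1 time and Got2, Gpt2 and Sucla2 did not. GGGCGG, the GC box, occurred 1 time in Glul, 3 times in Glud1 and 0 times in Got1, and 32.7% of all windows held it. It also occurred 5 times in Suclg2, 2 times in Gpt2 and 1 time in Sucla2, and not in Got2. TGATGNAA, the core of the amino acid response element, occurred 1 time in Got1, 102 bases before the start, directly beside a CCAAT match with which it shares no base, and in 3.45% of all windows. The other 6 matched genes did not hold it. CACGTG (an E box, 6.02% of all windows), TGACGTCA (a cAMP response element, 1.55%) and CCCCAAAC (the start of the consensus of RREB1, 1.58%) were in none of the 7 windows. GC content was 64.8% in Glul, 82% in Glud1 and 54.4% in Got1, against a median of 52.4%. These are matches of letters only.

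The aspartate transaminases pass the amino group of glutamate to oxaloacetate, which yields alpha-ketoglutarate and aspartate, and Got1 is the cytosolic enzyme and Got2 the mitochondrial one. Got1 RNA was at 28.8 and 25.0 RPKM in KO-labelled libraries and 21.6 and 23.0 RPKM in WT libraries. The groups did not overlap, and RNA rose by a log2 difference of 0.26 ± 0.09 (SE, n = 2 per group, limma adjusted p = 0.0363). That call was lost without WT replicate 1, WT replicate 2 or KO replicate 1, at limma adjusted p-values of 0.195, 0.0889 and 0.114. Got1 footprints overlapped, at 44.2 and 58.7 RPKM in KO-labelled libraries and 38.5 and 58.9 RPKM in WT libraries (log2 difference 0.10 ± 0.37, SE, n = 2 per group, limma adjusted p = 0.903). The smallest whole numbers of reads that these footprint levels allow are 10 in each KO-labelled library and 21 and 24 in WT libraries. With these numbers the footprint length of Got1 came out at 621 bases, against 1290 for Got2. The true reads of Got1 may therefore be a multiple of these numbers, which was not tested. TE of Got1 was 1.52 and 2.30 in KO-labelled libraries and 1.75 and 2.49 in WT libraries.

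Got2 overlapped between groups in all 3 readouts. Its RNA was at 38.7 and 34.1 RPKM in KO-labelled libraries and 38.1 and 39.2 RPKM in WT libraries, a log2 difference of -0.09 with a 95% interval of -0.27 to 0.10 (n = 2 per group, limma adjusted p = 0.371). Got2 footprints were at 46.8 and 42.4 RPKM in KO-labelled libraries and 45.9 and 79.1 RPKM in WT libraries, where WT replicate 2 stood above the other 3 libraries. TE of Got2 was 1.21 and 1.24 in KO-labelled libraries and 1.20 and 1.995 in WT libraries, with the same library on top.

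Gpt2, the mitochondrial alanine transaminase that makes alpha-ketoglutarate and alanine from glutamate and pyruvate, was the scarcest of the 8 in RNA. Its footprints were at 34.4 and 6.85 RPKM in KO-labelled libraries and 1.43 and 4.77 RPKM in WT libraries. These rest on 20 and 3 reads in KO-labelled libraries and on 2 and 5 reads in WT libraries, so only KO replicate 1 stood well above the others. The 3 reads of KO replicate 2 leave a 95% Poisson interval of 1.41 to 20.01 RPKM, which holds both WT levels. RNA of Gpt2 ran the other way, at 1.78 and 1.51 RPKM in KO-labelled libraries and 2.30 and 2.36 RPKM in WT libraries. In a fit over 11151 genes with no filter on low values, the RNA difference of -0.33 ± 0.10 (log2, SE, n = 2 per group) had a limma adjusted p of 0.0235, where 58.3% of all genes passed. The footprint difference of 2.16 ± 0.98 and the TE difference of 2.49 ± 0.87 (log2, SE, n = 2 per group) did not pass there, with limma adjusted p-values of 0.414 and 0.465.

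Sucla2 and Suclg2 encode the alternative beta subunits of succinyl-CoA ligase, which make the enzyme form ATP and GTP. Both share the alpha subunit Suclg1. Sucla2 RNA was at 34.1 and 29.7 RPKM in KO-labelled libraries and 33.0 and 34.9 RPKM in WT libraries, and the groups overlapped (log2 difference -0.09, 95% interval -0.29 to 0.11, n = 2 per group, limma adjusted p = 0.378). Footprints of Sucla2 were at 49.4 and 94.5 RPKM in KO-labelled libraries and 49.2 and 76.8 RPKM in WT libraries, so replicates within a group differed more than the group means did. Suclg2 RNA was at 11.4 and 11.3 RPKM in KO-labelled libraries and 10.2 and 12.5 RPKM in WT libraries (log2 difference 0.01, 95% interval -0.23 to 0.25, n = 2 per group, limma adjusted p = 0.924). Suclg2 footprints came from 8 and 5 reads in KO-labelled libraries and 8 and 18 reads in WT libraries, giving 16.9 and 14.0 RPKM against 7.01 and 21.1 RPKM. TE of Sucla2 was 1.44 and 3.11 in KO-labelled libraries and 1.48 and 2.17 in WT libraries, and TE of Suclg2 was 1.44 and 1.22 in KO-labelled libraries and 0.717 and 1.64 in WT libraries. The 95% intervals of the footprint differences, -1.03 to 1.34 for Sucla2 and -1.23 to 1.83 for Suclg2 (log2), exclude neither a 2-fold rise nor a 2-fold fall at this depth.

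Ratios of RPKM + 1 were taken between genes of the same library, for 3 pairs in both readouts. Got1 over Got2 in RNA was 0.752 and 0.739 in KO-labelled libraries and 0.579 and 0.598 in WT libraries, so the balance lay closer to the cytosolic enzyme in both KO-labelled libraries. Glul over Glud1 in RNA was 0.253 and 0.188 in KO-labelled libraries and 0.357 and 0.310 in WT libraries, so synthetase RNA was lower relative to dehydrogenase RNA. Both ratios separated the groups, with log2 differences of 0.34 and -0.61, and the two-sided exact permutation p of 0.333 for each is the smallest that 2 against 2 libraries can give. Glul over Glud1 in RNA had a log2 difference of -0.39 without KO replicate 2 and -0.82 without KO replicate 1. Sucla2 over Suclg2 in RNA overlapped, at 2.82 and 2.49 in KO-labelled libraries and 3.04 and 2.66 in WT libraries (exact permutation p = 0.667). In footprints, Got1 over Got2 was 0.945 and 1.38 in KO-labelled libraries and 0.842 and 0.747 in WT libraries, again without overlap (exact permutation p = 0.333). The footprint ratios of the other pairs overlapped. With 6 ratios and this smallest p, none could pass a threshold of 0.05. How many of all gene pairs separate the groups was not computed. Of single tested genes, 82% did not overlap between groups in RNA and 52.5% in footprints.

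**Figure D3:**
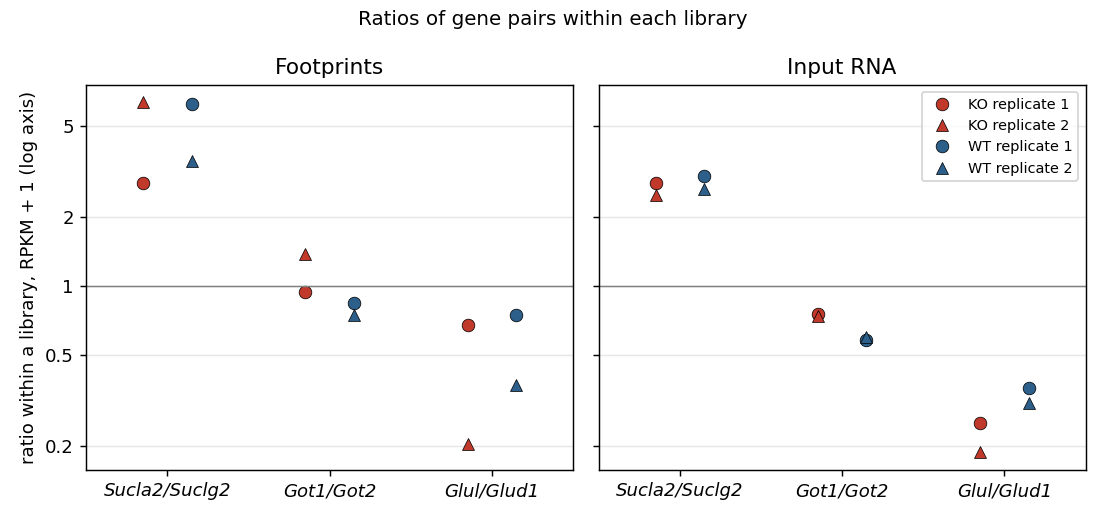
Ratios of RPKM + 1 of 3 gene pairs within each library, in footprints and in RNA, on a log axis, with KO-labelled libraries left of WT libraries; each point is 1 library. Got1 over Got2 is higher in both KO-labelled libraries in either readout, and Sucla2 over Suclg2 overlaps between the groups in both.

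The order of RNA levels per kilobase differed between groups. In KO-labelled libraries it ran Slc1a5 (196 ± 6.40 RPKM, SD, n = 2), Got2 (36.4 ± 3.24), Sucla2 (31.9 ± 3.08), Glud1 (29.1 ± 2.15), Got1 (26.9 ± 2.74), Suclg2 (11.4 ± 0.0880), Glul (5.58 ± 0.905) and Gpt2 (1.64 ± 0.192), and Sucla2 overlapped with Glud1 and Glud1 with Got1. In WT libraries it ran Slc1a5 (132 ± 3.61 RPKM, SD, n = 2), Glud1 (54.5 ± 2.20), Got2 (38.6 ± 0.756), Sucla2 (33.9 ± 1.33), Got1 (22.3 ± 0.978), Glul (17.5 ± 1.12), Suclg2 (11.3 ± 1.63) and Gpt2 (2.33 ± 0.0446), and no neighbours overlapped. Glud1 thus stood below Got2 and Sucla2 in mean RNA in KO-labelled libraries and above both in WT libraries, and Glul stood below Suclg2 in KO-labelled libraries and above it in WT libraries. In footprints per kilobase of coding sequence, Slc1a5 led in KO-labelled libraries at 184 ± 27.4 RPKM and Glud1 was next at 105 ± 14.4 RPKM, and each of the other 6 genes overlapped with the next. In WT libraries Glud1 led at 219 ± 51.3 RPKM, ahead of Slc1a5 at 164 ± 4.76 RPKM and Glul at 115 ± 30.0 RPKM (SD, n = 2 for each).

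TE did not pass for any of the 7 genes in limma, nor for any of the 6387 genes tested (0%), and 0 of the 7 had an unadjusted p under 0.05, against 13% of all tested genes. Glul had the highest TE of the 7 in every library and Slc1a5 the lowest, except in WT replicate 1, where Suclg2 and Got2 were lower. In the authors' deposited table, the p-values of the 8 genes lay between 0.075 for Slc1a5 and 0.467 for Glul.

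Lists of the other genes of the route held 66 genes, of which 51 were in the table and 42 were tested. In RNA 14 rose and 11 fell, and in footprints 1 rose and 0 fell, against 33.1%, 27.7%, 0.579% and 0.454% of all tested genes. The count that rose in RNA was 7 without WT replicate 1 and 7 without WT replicate 2. TE passed for 0 of the 42 in limma, with 6 at an unadjusted p under 0.05. The median log2 differences of the 42 were -0.07 in footprints and 0.00 in RNA. Among 5 tested plasma membrane transporters of glutamine or glutamate, RNA of 2 rose and of 1 fell. Slc38a1, a sodium-coupled glutamine importer, had 15.4 and 15.9 RPKM of RNA in KO-labelled libraries and 4.91 and 4.95 RPKM in WT libraries (log2 difference 1.49, limma adjusted p = 5.12e-06). Its relative Slc38a2 fell in RNA, with 11.6 and 13.6 RPKM in KO-labelled libraries and 19.0 and 19.5 RPKM in WT libraries (log2 difference -0.58, limma adjusted p = 0.00116).

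Among 10 tested enzymes that take nitrogen from glutamine, RNA of 2 rose and of 2 fell. Ctps2, a CTP synthase that takes nitrogen from glutamine, fell in RNA by 0.74 on the log2 scale. Of 4 tested mitochondrial carriers, RNA of 2 rose and of 1 fell. The glutamate carrier Slc25a22 was at 11.9 ± 0.0701 RPKM of RNA in KO-labelled libraries and 8.31 ± 0.873 RPKM in WT libraries, and the aspartate and glutamate carrier Slc25a13 at 6.80 ± 0.323 and 11.2 ± 1.31 RPKM (SD, n = 2 per group).

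Other enzymes that make or use glutamate had 5 higher and 3 lower in RNA of 12 tested. Bcat1, the cytosolic branched-chain transaminase that makes glutamate from alpha-ketoglutarate, was the 1 list gene past the threshold in footprints. It entered the test only through the KO-labelled libraries, so its passing is a description and not support for a change in the list. It had 15 and 9 footprint reads in KO-labelled libraries and 0 in both WT libraries, so footprints were at least 19.2-fold higher, against a floor of 3 reads over the WT group (limma adjusted p = 0.0204). The footprint call of a list gene was lost without WT replicate 1, without WT replicate 2 and with no filter on low genes, where 0 list genes were higher. With no filter, 0 of all 11151 genes passed in footprints. Bcat1 RNA was at 4.85 and 5.17 RPKM in KO-labelled libraries and 0 and 0.0354 RPKM in WT libraries, from 833 and 821 reads against 0 and 6. Aldh4a1, which makes glutamate in proline breakdown, fell in RNA by 0.55 on the log2 scale. From alpha-ketoglutarate to succinate and its use, RNA of 2 of 9 tested genes rose and of 4 fell. Oxct1, which uses succinyl-CoA to activate ketone bodies and releases succinate, had 28.6 and 31.6 RPKM of RNA in KO-labelled libraries and 7.67 and 8.39 RPKM in WT libraries, a rise of 1.78 on the log2 scale (limma adjusted p = 3.44e-06). Oxct1 footprints were at 31.7 and 56.1 RPKM in KO-labelled libraries and 362 and 14.7 RPKM in WT libraries, with WT replicate 1 far above the other 3. Ogdh, the first subunit of the alpha-ketoglutarate dehydrogenase complex, fell in RNA by 0.47 on the log2 scale, at 37.6 and 39.4 RPKM in KO-labelled libraries and 52.1 and 55.5 RPKM in WT libraries. Of the malate dehydrogenases, RNA of Mdh1 rose by 0.28 on the log2 scale and Mdh2 did not pass.

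**Figure D4:**
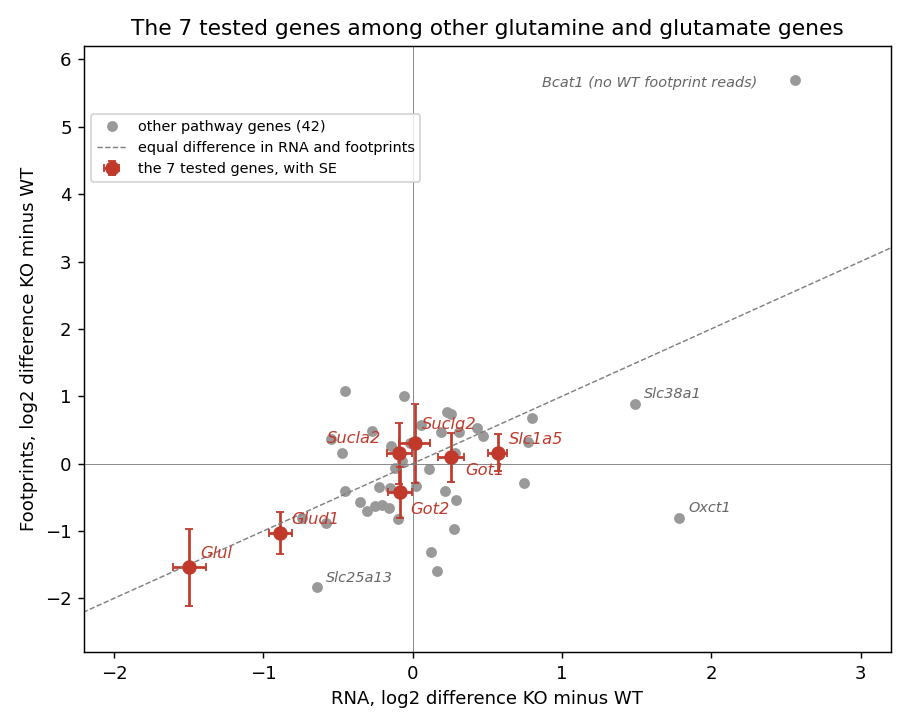
Log2 difference, KO minus WT, in RNA (x axis) and footprints (y axis) for the 7 tested genes, with SE bars, and for 42 other genes of glutamine and glutamate metabolism; the dashed line marks equal differences. Glul and Glud1 lie near the line at the lower left, and the fitted position of Bcat1 depends on the value of 1 added to its WT footprint level of 0.

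For each of the 8 genes, the tested gene with the most similar pattern was taken over 8 values, the 4 log2 footprint and 4 log2 RNA levels, each centred on its mean. The measure was the root mean square distance. Glul was closest to Nlrc4 (0.187) and Glud1 to Mvp (0.0380). Nlrc4 footprints were at 5.23 and 2.32 RPKM in KO-labelled libraries and 14.8 and 12.6 RPKM in WT libraries. Slc1a5 was closest to Cwc15 (0.0387), Got1 to Nob1 (0.0301), Got2 to Ciapin1 (0.0750), Gpt2 to Capza1 (0.174), Sucla2 to Adsl (0.0523) and Suclg2 to Vps33b (0.0888). Each is the smallest distance among all tested genes, so a small value is no evidence of a link. These distances describe 4 libraries only.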

How the data were processed

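Footprints and input RNA were measured in 4 libraries, 2 labelled KO and 2 labelled WT. Per the submitters' processing notes, the tools were DESeq2, featureCounts, HISAT2 2.1.0 and CASAVA, whose roles are not stated, and the build is hg38, a human build, although samples and symbols are mouse. The deposited footprint values behaved as RPKM plus 1, read from the values and not stated by the authors. The deposited TE is the ratio of that value to an RNA value with the same floor, so RNA RPKM was taken as the footprint value over TE, minus 1. The p-value column deposited by the authors is headed as adjusted, and it was used only for quotation. RNA is per kilobase of a longer length than the coding sequence, so TE sets the readouts on different lengths.

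The RPKM steps gave whole reads within a tolerance of 0.002 reads, for each of the 10536 genes that had footprints in 2 or more libraries and for 15977 of 15988 genes in RNA. A factor common to all libraries cannot be seen in this way. Poisson intervals cover counting error only. Between replicates, the chi-square per gene exceeded that of sampling noise, at 13.9 in KO and 5.73 in WT for footprints, and 19.8 and 7.50 for RNA.

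Differences are from limma 3.58.1 (R 4.3.3) with the trend option, fitted to log2(RPKM + 1), which understates changes of low genes, with two-sided p-values, Benjamini-Hochberg adjustment over 6387 genes and a threshold of 0.05. The table holds no counts, so the planned count test was not used. Ratios of genes were compared by an exact permutation test over libraries, in Python 3.11.15. The fit and the recovery of reads were tested on simulated data. The 8 genes and the lists were chosen with earlier results of these data known. Named list genes are those past the threshold in footprints or TE and, in RNA, the largest rise and the largest fall of each list. One result that this rule would name is not reported here. Alternatives were other pseudocounts, filters, scalings, variance and count models, a replicate block and each library left out.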

Additional observations from a re-analysis of the deposited data

How the results depend on the processing

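Over the settings that kept all 4 libraries, direction and side of the threshold held for the 7 genes in 68 of 68 footprint values, 60 of 61 RNA values and 58 of 61 TE values. The exceptions were Got1 RNA with the replicate number as a block (log2 difference 0.26, limma adjusted p = 0.0615, a call lost) and the sign of TE for Glul (0.0165 with a pseudocount of 0.5, 0.0925 with median scaling) and Got1 (0.0355 with quantile normalisation). Filters, the trend option and replicate blocks leave the log2 difference itself unchanged, so direction could not turn in those settings. With no filter 0 of 11151 genes passed in footprints or in TE, so no gene could gain a call there. The number of the 7 genes higher in RNA was 1 in place of 2 with the replicate block and with at least 50 CPM. At 50 CPM only 5 of the 7 were tested, and Got1 was among those left out, so its call was not retested there. The CPM of Got1 rests on the smallest read numbers that its levels allow, so its removal may depend on them. The number of list genes higher in footprints was 0 in place of 1 with at least 50 CPM, where 30 list genes were tested, and with no filter. That gene, Bcat1, had 15 and 9 reads in KO-labelled libraries, under 50 CPM, so its call was not retested at that filter. With a pseudocount of 5 the log2 differences of the RNA ratios were 0.30 for Got1 over Got2 and -0.28 for Glul over Glud1. The cause was not tested. Same-numbered libraries did not deviate together in footprints (correlation 0.02 over 6387 genes), and in RNA they tended to deviate in opposite directions (-0.34). Why they did so was not tested. With crossed numbers, chosen after seeing the data, limma called 133 genes in footprints, 4391 in RNA and 2 in TE, and 0, 4 and 0 of the 7.

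Leaving out 1 library leaves a lone library whose spread is taken from the other group. Log2 differences in footprints then ranged over -2.26 to -0.82 for Glul, -0.20 to 0.40 for Got1, 0.0128 to 0.32 for Slc1a5, -0.81 to -0.0417 for Got2, -0.31 to 0.61 for Sucla2 and -0.43 to 1.03 for Suclg2. In RNA they ranged over 0.16 to 0.36 for Got1, -0.17 to 0.0028 for Got2, -0.19 to 0.0062 for Sucla2 and -0.12 to 0.15 for Suclg2. In TE the ranges were -0.59 to -0.22 for Slc1a5, -0.63 to 0.54 for Glul, -0.35 to 0.0528 for Glud1, -0.46 to 0.14 for Got1, -0.71 to 0.0246 for Got2, -0.32 to 0.80 for Sucla2 and -0.31 to 0.89 for Suclg2. Calls among the 7 genes ranged over 0 to 1 lower in footprints and 1 to 2 higher in RNA. Among the 42 list genes they ranged over 0 to 1 higher and 0 to 2 lower in footprints, 7 to 15 higher in RNA, and 0 to 1 higher and 0 to 1 lower in TE. Log2 differences of the RNA ratios ranged over 0.32 to 0.37 for Got1 over Got2, -0.82 to -0.39 for Glul over Glud1 and -0.20 to -0.0061 for Sucla2 over Suclg2, and those of the footprint ratios over 0.25 to 0.79, -1.37 to 0.35 and -0.74 to 0.44 for the same pairs.

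Over all tested genes, limma called 66 in footprints, but 108 with a pseudocount of 5, 120 with at least 50 CPM, 0 with no filter (1667 at an unadjusted p under 0.05), 32 with the replicate block, 327 without KO replicate 1, 1085 without KO replicate 2 and 0 without either WT library (389 and 421 at an unadjusted p under 0.05 without WT replicates 1 and 2). TE calls were 0 in the fit reported, 1 with a pseudocount of 5, 1 with at least 50 CPM, 148 without KO replicate 1 and 698 without KO replicate 2. With limma-voom on recovered reads, 62 genes passed in footprints. The median difference of all tested genes moved with the scaling: in footprints it was -0.13, and -0.02 after quantile normalisation, and in TE it was -0.15, and -0.02 after median scaling.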
